A study of Homo sapiens with 12 samples.

Results

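Intergenic and antisense long noncoding RNAs were examined in MOLM-13, a human AML cell line with FLT3-ITD, an activating duplication in the FLT3 receptor kinase. The 326 RNAs were chosen by name and by level. Names had to be LINC followed by a number or end in -AS1, -AS2 or -AS3, and only RNAs selected on a mean level of at least 1 CPM (the count scaled to the same total in every library) over all 12 libraries were kept. In all, 3169 of the 57353 rows of the count table carried such names, of which 1753 were without counts and 1090 had counts but a mean below 1 CPM. Of the 326 RNAs, 102 had LINC names and 224 had antisense names. Just inside the threshold lay MELTF-AS1 and LINC00345, each with a mean of 1.01 CPM, and just outside it lay RHPN1-AS1 with 0.992 CPM and PRR7-AS1 with 0.991 CPM. Cells were cultured for 15 hr in RPMI, the regular medium, or in hBMSC-CM, an equal mix of RPMI and medium conditioned by HS-5, a human bone marrow stromal cell line. In each medium they received vehicle (DMSO) or 3 nM quizartinib, a FLT3 kinase inhibitor, which gave 4 groups of 3 libraries. Conditioned medium stands in for soluble factors of the marrow, and no stromal cells were cultured with the leukemia cells. All libraries come from a single cell line, and the study describes its replicates as biological. The labels do not say how they were kept apart, and p-values measure the spread between these libraries.

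Long noncoding RNAs are transcripts of RNA polymerase II that are often capped, spliced and polyadenylated like mRNAs but carry no long conserved reading frame. Intergenic ones lie between coding genes, and antisense ones are read from the strand opposite a coding gene, often from a promoter that fires in both directions. They are in general less abundant than mRNAs, many are retained in the nucleus and turned over quickly, and some act on the expression of a neighboring gene.

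Total counts per library lay between 19966546 and 31546104, so that an RNA with no count may have had up to 3 counts, or 0.0951 to 0.150 CPM (counting error only). Replicates differed from each other by more than sampling noise, with a chi-square of 2.66 to 10.5 per gene in the 12 pairs within groups. Of 10 markers of myeloid leukemia cells, 9 passed the filter, all but KIT. The summed level of the 10 was 1028 to 1068 CPM with vehicle and 1782 to 1823 CPM with quizartinib in RPMI, and 1166 to 1198 and 1991 to 2143 CPM in hBMSC-CM. The markers did not move together. With quizartinib in RPMI 6 were higher and 3 lower, CD33, MPO and ITGAM (log2 fold changes −0.28, −0.41 and −1.01). In hBMSC-CM 5 were higher with quizartinib and 1 lower. Of 10 stromal markers, COL3A1, DCN, LUM, THY1, POSTN and CXCL12 were at 0 CPM in all 12 libraries, COL1A2 and PDGFRB were too low to be tested, and COL1A1 and TAGLN rose with quizartinib. Their sum was 2.91 to 3.09 CPM with vehicle and 10.5 to 12.5 CPM with quizartinib in RPMI, and 2.70 to 3.20 and 5.82 to 6.56 CPM in hBMSC-CM. COL1A1, a fibrillar collagen gene, had mean levels of 0.177 and 4.61 CPM in RPMI and log2 fold changes of 4.72 ± 0.24 there and 2.10 ± 0.32 in hBMSC-CM, and TAGLN, the gene of an actin-binding protein, had 1.26 ± 0.13 and 0.87 ± 0.15 (SE). The share of counts on mitochondrially encoded genes also moved with the groups, with a mean of 0.726% with vehicle against 1.05% with quizartinib in RPMI, and of 0.511% against 0.856% in hBMSC-CM. The part of these differences in the results was not tested. Since the counting is not stated to use strand, reads of an antisense RNA and of the gene opposite to it cannot be told apart where their exons overlap.

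A position on GRCh38 was found for 318 of the RNAs in the GENCODE 44 annotation, 281 by symbol and 37 by an older symbol. The annotation lists 307 of these as long noncoding RNA, 8 as pseudogenes and 3 as protein-coding. Exons overlapped those of a gene on the opposite strand for 181 of 222 antisense RNAs and for 40 of 96 LINC RNAs, and 132 of the 318 started within 1000 bases of the start of a coding gene on the opposite strand. The RNAs were low in level, with a median of 3.57 CPM against 29.7 CPM over the 12998 genes tested. Only 66 of the 326 reached a mean of 10 CPM, and 67 had a mean below 1 CPM in at least 1 group. A lower level came with wider errors. For the log2 fold change between quizartinib and vehicle in RPMI, the median SE was 0.14 for these RNAs and 0.07 for all genes tested.

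The promoter windows of 6 RNAs are shown because their levels moved most in RPMI with quizartinib, or differed most between the media with quizartinib, among the 4 largest rises and falls described for these comparisons that had a window in the reference (RefSeq, GRCh38.p14). Each runs 5′ to 3′ on the RNA's own strand from 250 bases before its annotated start, with the first 50 transcribed bases in capitals. The windows lie at chr7:1742261-1742560 (minus strand) for ELFN1-AS1, chr1:41014340-41014639 (plus strand) for SLFNL1-AS1, chr21:46228981-46229280 (plus strand) for MCM3AP-AS1, chr3:129893621-129893920 (plus strand) for TMCC1-AS1, chr16:89711606-89711905 (plus strand) for VPS9D1-AS1 and chr18:3593864-3594163 (plus strand) for DLGAP1-AS1.
ELFN1-AS1: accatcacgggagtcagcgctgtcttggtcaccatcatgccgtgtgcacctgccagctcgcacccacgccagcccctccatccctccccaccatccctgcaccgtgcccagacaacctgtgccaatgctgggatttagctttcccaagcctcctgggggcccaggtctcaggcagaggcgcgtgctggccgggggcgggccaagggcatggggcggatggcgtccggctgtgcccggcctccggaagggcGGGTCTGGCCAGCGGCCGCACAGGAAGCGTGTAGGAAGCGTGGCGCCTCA
SLFNL1-AS1: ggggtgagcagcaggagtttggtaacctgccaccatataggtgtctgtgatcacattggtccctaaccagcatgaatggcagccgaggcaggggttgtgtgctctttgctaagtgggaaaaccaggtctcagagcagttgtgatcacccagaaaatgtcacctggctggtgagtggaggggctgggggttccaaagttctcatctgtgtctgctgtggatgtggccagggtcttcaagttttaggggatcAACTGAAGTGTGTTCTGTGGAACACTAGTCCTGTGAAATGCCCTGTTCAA
MCM3AP-AS1: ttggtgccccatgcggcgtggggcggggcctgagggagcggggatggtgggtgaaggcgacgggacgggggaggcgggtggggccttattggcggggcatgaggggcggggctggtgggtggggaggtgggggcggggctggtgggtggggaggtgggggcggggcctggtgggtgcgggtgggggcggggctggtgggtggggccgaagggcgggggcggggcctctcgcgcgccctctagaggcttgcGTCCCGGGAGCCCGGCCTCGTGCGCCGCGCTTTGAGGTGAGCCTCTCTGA
TMCC1-AS1: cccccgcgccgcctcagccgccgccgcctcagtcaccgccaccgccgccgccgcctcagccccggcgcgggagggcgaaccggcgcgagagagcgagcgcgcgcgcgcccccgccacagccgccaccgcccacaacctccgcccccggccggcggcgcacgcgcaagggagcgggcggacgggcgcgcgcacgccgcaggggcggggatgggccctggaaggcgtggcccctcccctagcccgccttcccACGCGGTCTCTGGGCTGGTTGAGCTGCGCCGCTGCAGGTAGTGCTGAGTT
VPS9D1-AS1: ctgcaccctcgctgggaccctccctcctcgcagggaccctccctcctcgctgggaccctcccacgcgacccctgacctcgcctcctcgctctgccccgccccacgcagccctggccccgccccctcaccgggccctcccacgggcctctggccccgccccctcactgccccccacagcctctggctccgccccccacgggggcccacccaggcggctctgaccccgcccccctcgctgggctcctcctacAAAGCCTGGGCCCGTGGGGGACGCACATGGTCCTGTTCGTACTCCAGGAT
DLGAP1-AS1: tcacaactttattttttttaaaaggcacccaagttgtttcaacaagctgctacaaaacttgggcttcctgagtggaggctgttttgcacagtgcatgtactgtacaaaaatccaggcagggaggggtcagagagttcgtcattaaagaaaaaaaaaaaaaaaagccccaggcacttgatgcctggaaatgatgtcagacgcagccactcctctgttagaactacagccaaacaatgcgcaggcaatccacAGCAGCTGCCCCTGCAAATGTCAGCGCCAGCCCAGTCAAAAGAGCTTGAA
Their base composition differed widely. TMCC1-AS1 had 80.3% G and C and 49 CpG dinucleotides, MCM3AP-AS1 77.3% and 27, VPS9D1-AS1 75.7% and 21 and ELFN1-AS1 69.0% and 21, whereas SLFNL1-AS1 had 52.0% and 1 and DLGAP1-AS1 46.0% and 4. Over the 215 RNAs with a window the median was 64.3% with 24 CpG, against 57.7% with 12 CpG in all 22114 windows of the reference.

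To see how FLT3 inhibition changed these RNAs in regular medium, quizartinib was compared with vehicle in RPMI. Levels are shares of a library, so rises and falls here and below are relative to its other RNAs, and RNA per cell was not measured. These RNAs rose far more often than they fell. By the quasi-likelihood test of edgeR with Benjamini-Hochberg adjustment over all 12998 genes, and a threshold of 0.05, 193 of the 326 were higher and 50 were lower, and 83 did not pass. Of all genes tested, 79.3% passed, 40.1% higher and 39.2% lower, whereas of these RNAs 59.2% were higher and 15.3% lower. Their median log2 fold change was 0.51, compared with 0.02 over all genes. At least a 2-fold rise was found for 91 RNAs (27.9%; 9.63% of all genes) and at least a 2-fold fall for 23 (7.1%; 11.8% of all genes). Of the LINC RNAs, 63 of 102 were higher (61.8%) and 11 lower (10.8%), and of the antisense RNAs 130 of 224 were higher (58.0%) and 39 lower (17.4%). Of those with overlapping exons on the other strand 134 of 221 were higher and 36 lower, and of those without 55 of 97 and 13. The shift was smaller in the more abundant RNAs. Among the 66 that reached 10 CPM on average, 54.5% were higher and 24.2% lower, and the median log2 fold change was 0.26. For the 260 less abundant ones the shares were 60.4% and 13.1%, and the median was 0.56. A rise of at least 2-fold was found for 19.7% of the former and 30% of the latter. The differences between these classes were not tested. Some RNAs met the selection only through the group in which they were high. Of the 259 with a mean of at least 1 CPM in every group, 150 were higher and 37 lower, and 60 (23.2%) rose and 13 (5.02%) fell at least 2-fold.

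Summed over the 326 RNAs, counts made up 0.215% to 0.228% of the library with vehicle in RPMI and 0.294% to 0.314% with quizartinib in RPMI. In hBMSC-CM they made up 0.201% to 0.212% with vehicle and 0.278% to 0.287% with quizartinib. The shares with quizartinib lay above those with vehicle in both media, and those of the quizartinib groups did not overlap between the media. In such bulk samples, a change in the number of cells that make an RNA and a change in its level per cell cannot be told apart. In its polysome experiment, the paper reports less RNA from whole lysates with quizartinib. What this means for the shares given here was not tested.

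**Figure D1:**
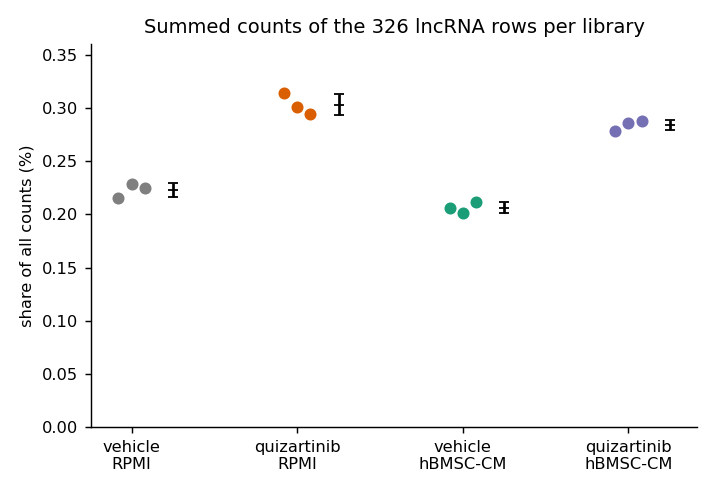
Share of all counts of a library (%, y axis) on the 326 long noncoding RNAs, by group (x axis). Points are libraries, and the bar beside them gives the mean and SD of 3. Quizartinib libraries lay between 0.278% and 0.314% and vehicle libraries between 0.201% and 0.228%.

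**Figure D2:**
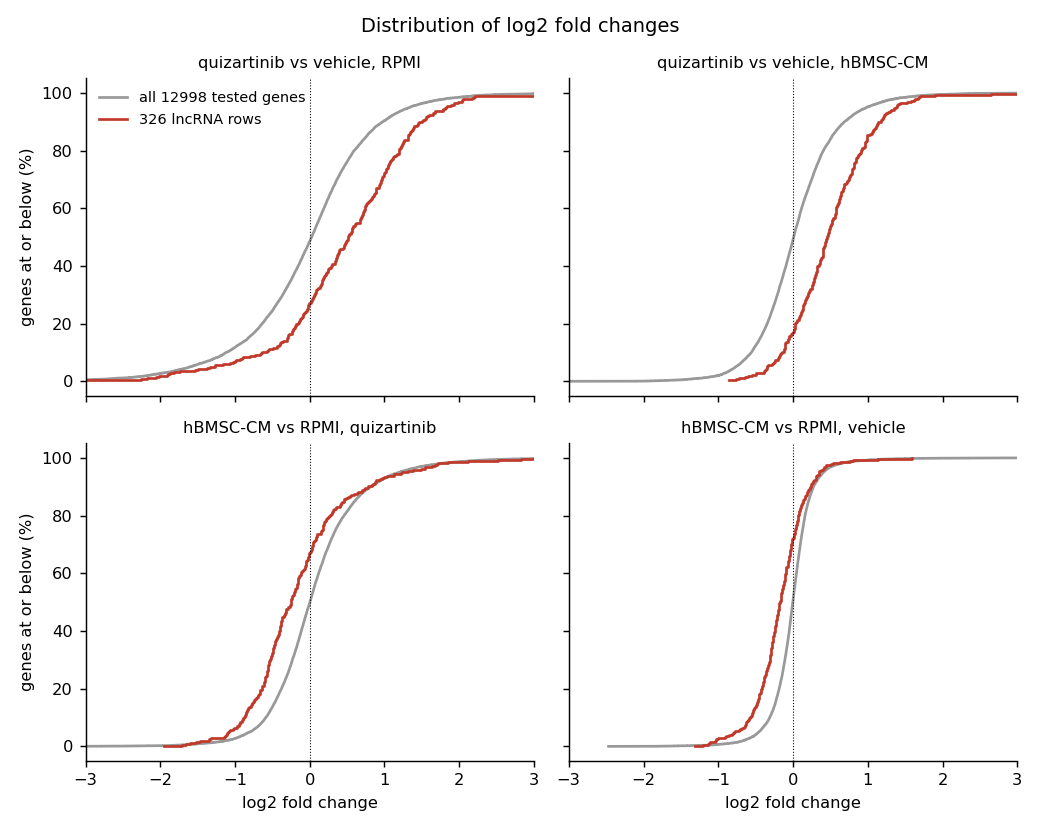
Cumulative share (%, y axis) of RNAs or genes at or below a log2 fold change (x axis, shown from −3 to 3) in the 4 comparisons, for the 326 long noncoding RNAs (red) and all 12998 genes tested (gray). The red curve lay to the right of the gray one with quizartinib in both media, with medians of 0.51 in RPMI and 0.46 in hBMSC-CM, and to the left in hBMSC-CM against RPMI, with medians of −0.25 with quizartinib and −0.18 with vehicle.

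Of the RNAs with a mean of at least 2 CPM, LINC01226, DLGAP1-AS1, GAS6-AS1 and HMGA2-AS1 rose most in RPMI. LINC01226 and DLGAP1-AS1 were below 1 CPM in every vehicle library and met both thresholds only through their quizartinib libraries. HMGA2-AS1 reached 2 CPM only through quizartinib in RPMI. The fold changes and p-values of these RNAs are thus not free of the selection. LINC01226, on chromosome 1, was at 0.615, 0.352 and 0.461 CPM with vehicle in RPMI, 6.25, 5.98 and 5.57 CPM with quizartinib in RPMI, 0.858, 0.601 and 0.997 CPM with vehicle in hBMSC-CM and 5.47, 4.92 and 5.20 CPM with quizartinib in hBMSC-CM. It was low in every vehicle library and high in every quizartinib library of both media, with no overlap. Its log2 fold change in RPMI was 3.61 ± 0.18 (SE; adjusted p = 1.15e-13 in the quasi-likelihood test of edgeR with Benjamini-Hochberg adjustment, n = 3 per group). Its exons overlap on the same strand with those of LDC1P, counted here under its older name LINC01225, and of TINAGL1, so their reads may be shared. LINC01225 had means of 0.192 CPM with vehicle and 2.87 CPM with quizartinib in RPMI. It too was below 1 CPM in every vehicle library and met the selection only through its quizartinib libraries. DLGAP1-AS1, on chromosome 18, was at 0.410, 0.861 and 0.876 CPM with vehicle in RPMI, 4.19, 4.07 and 4.20 CPM with quizartinib in RPMI, 0.858, 0.751 and 0.997 CPM with vehicle in hBMSC-CM and 2.63, 2.06 and 3.14 CPM with quizartinib in hBMSC-CM. Its quizartinib libraries lay above the vehicle libraries in both media, and higher in RPMI than in hBMSC-CM. The log2 fold change was 2.57 ± 0.21 in RPMI (adjusted p = 3.39e-10, edgeR). Its partner DLGAP1, a gene of synaptic scaffolds, was too low to be tested.

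GAS6-AS1 and HMGA2-AS1 are antisense to genes that fell. GAS6-AS1, opposite the gene for GAS6, a ligand of the TAM receptor kinases, was at 2.33, 2.46 and 2.40 CPM with vehicle in RPMI, 9.97, 12.1 and 11.04 CPM with quizartinib in RPMI, 0.858, 1.20 and 1.33 CPM with vehicle in hBMSC-CM and 3.15, 3.95 and 3.47 CPM with quizartinib in hBMSC-CM. The 4 groups did not overlap, with the highest level with quizartinib in RPMI and the lowest with vehicle in hBMSC-CM. Its log2 fold change with quizartinib in RPMI was 2.21 ± 0.13, while GAS6 itself fell by 0.76 on the log2 scale (adjusted p = 8.06e-13 and 2.58e-11, edgeR). HMGA2-AS1, opposite the gene for HMGA2, an architectural chromatin protein, was at 1.27, 1.60 and 1.20 CPM with vehicle in RPMI, 6.25, 6.19 and 6.01 CPM with quizartinib in RPMI, 0.495, 0.350 and 0.807 CPM with vehicle in hBMSC-CM and 1.30, 1.93 and 1.59 CPM with quizartinib in hBMSC-CM. Quizartinib in RPMI stood apart from the other 3 groups. Here the log2 fold change was 2.17 ± 0.16, and that of HMGA2, with a mean of only 1.49 CPM with vehicle and 0.472 CPM with quizartinib, was −1.63 ± 0.23 (adjusted p = 7.69e-11 and 1.17e-06, edgeR). JMJD1C-AS1, opposite a gene of the Jumonji family of histone demethylases, was higher in level, at 8.51, 7.47 and 8.48 CPM with vehicle in RPMI, 31.04, 34.4 and 34.9 CPM with quizartinib in RPMI, 3.30, 3.50 and 4.41 CPM with vehicle in hBMSC-CM and 12.8, 12.2 and 14.6 CPM with quizartinib in hBMSC-CM. It rose with quizartinib in both media and was lower in hBMSC-CM with either treatment, without overlap between any groups. INTS6-AS1, named after a subunit of the Integrator complex, and LINC00649, both named after their values were seen, rose from means of 3.92 to 16.1 CPM and from 5.30 to 21.8 CPM in RPMI.

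The RNAs with a mean of at least 2 CPM that fell most in RPMI were ELFN1-AS1, SLFNL1-AS1, VPS9D1-AS1 and RNASEH1-AS1. ELFN1-AS1, on chromosome 7 within the locus of ELFN1, a gene of a synaptic membrane protein, was at 3.32, 2.66 and 4.24 CPM with vehicle in RPMI, 0.155, 0.348 and 0.537 CPM with quizartinib in RPMI, 4.06, 3.90 and 3.94 CPM with vehicle in hBMSC-CM and 1.93, 2.77 and 2.62 CPM with quizartinib in hBMSC-CM. Quizartinib in RPMI was far below the other 3 groups, with its lowest library close to the limit of 3 counts. Its log2 fold change in RPMI was −3.32 ± 0.28 (adjusted p = 6.51e-10, edgeR), and ELFN1 fell along with it, by 2.37 on the log2 scale. SLFNL1-AS1, whose exons overlap those of SCMH1, a Polycomb gene, and of SLFNL1 on the other strand, was at 3.49, 2.86 and 4.29 CPM with vehicle in RPMI, 0.776, 0.869 and 0.488 CPM with quizartinib in RPMI, 3.20, 2.55 and 2.47 CPM with vehicle in hBMSC-CM and 2.31, 2.24 and 3.51 CPM with quizartinib in hBMSC-CM. Again quizartinib in RPMI alone lay below the rest, and its log2 fold change was −2.26 ± 0.24 (adjusted p = 2.37e-08, edgeR). VPS9D1-AS1, also known as MYU and described as a target of MYC, was at 4.86, 6.06 and 6.92 CPM with vehicle in RPMI, 1.78, 1.36 and 1.03 CPM with quizartinib in RPMI, 7.29, 7.46 and 6.41 CPM with vehicle in hBMSC-CM and 3.50, 4.13 and 6.19 CPM with quizartinib in hBMSC-CM. The libraries with quizartinib lay below those with vehicle in each medium, and lower in RPMI than in hBMSC-CM. Its log2 fold change in RPMI was −2.06 ± 0.21, whereas the coding gene VPS9D1 had 1.06 ± 0.10 (adjusted p = 1.79e-08 and 3.81e-09, edgeR). RNASEH1-AS1, now called RNASEH1-DT for its place upstream of RNASEH1, whose enzyme cuts RNA in RNA-DNA hybrids, was at 12, 10.4 and 11.8 CPM with vehicle in RPMI, 3.34, 2.64 and 2.39 CPM with quizartinib in RPMI, 11.4, 13.1 and 13.6 CPM with vehicle in hBMSC-CM and 7.08, 7.16 and 6.70 CPM with quizartinib in hBMSC-CM. Levels with quizartinib were below those with vehicle in both media. In RPMI its log2 fold change was −2.02 ± 0.12 and that of RNASEH1 −1.14 ± 0.05 (adjusted p = 1.34e-12 and 1.85e-15, edgeR).

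**Figure D3:**
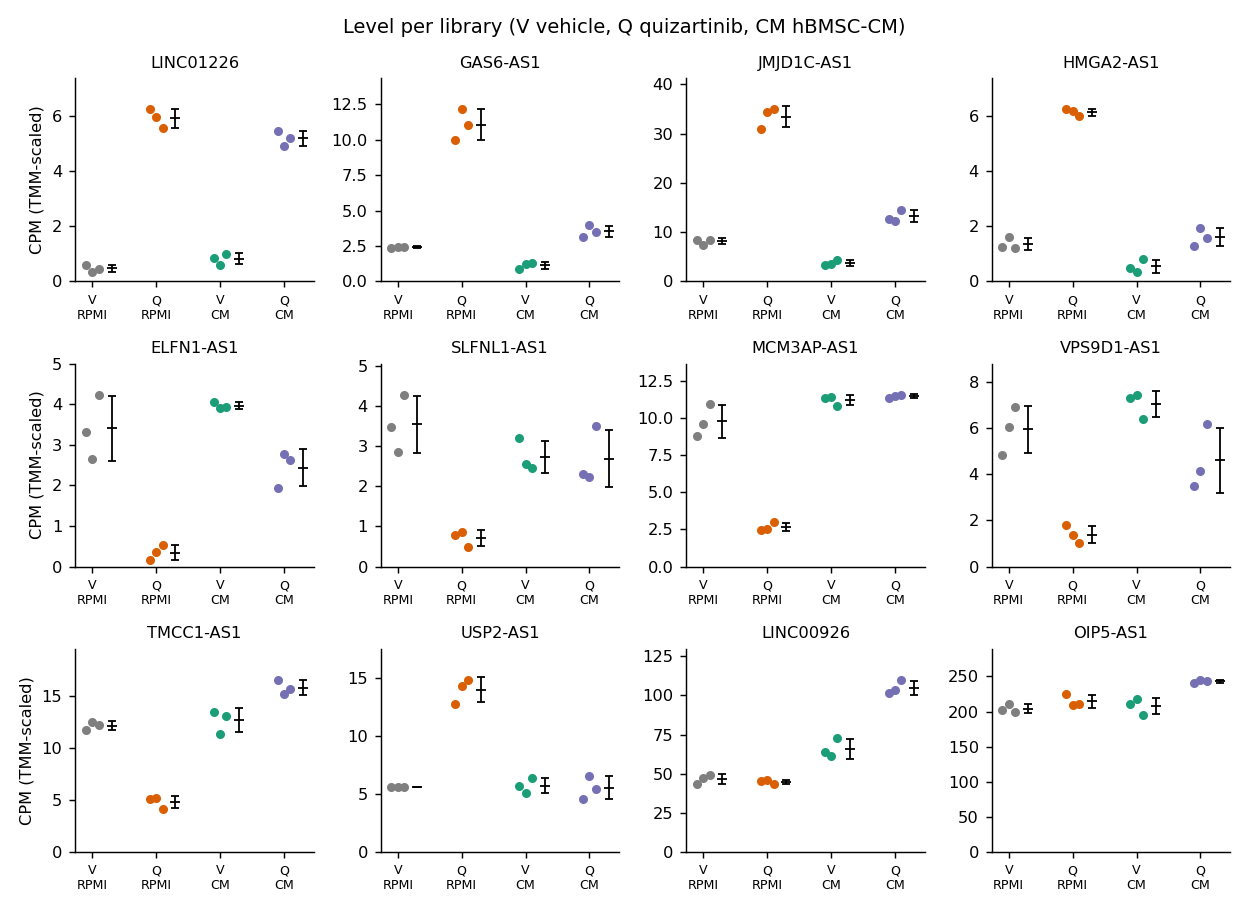
Level in CPM, scaled by TMM (y axis from 0, each panel with its own range), of 12 named RNAs in the 4 groups (x axis: V vehicle, Q quizartinib, in RPMI or hBMSC-CM). Points are libraries, and the bar gives the mean and SD of 3. ELFN1-AS1, SLFNL1-AS1, MCM3AP-AS1 and TMCC1-AS1 were lowest with quizartinib in RPMI, and USP2-AS1 was highest there.

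In hBMSC-CM, quizartinib again raised most of the RNAs that changed, and lowered few. By the quasi-likelihood test of edgeR with Benjamini-Hochberg adjustment, 190 of the 326 were higher with quizartinib and 19 lower, against 67.1% of all genes tested passing, 33.4% higher and 33.7% lower. The median log2 fold change was 0.46. At least a 2-fold rise was found for 48 RNAs (14.7%; 4.86% of all genes) and at least a 2-fold fall for 0, where the lower direction held 2.03% of all genes. Of the 259 RNAs with a mean of at least 1 CPM in every group, 152 were higher and 16 lower, and 25 (9.65%) rose at least 2-fold. This split depended on the scaling for genes in general. With scaling by library size only, 62.8% of all called genes were higher in place of 49.8%, and with upper-quartile factors 60.03%, while of the RNAs called, 223 were higher and 11 lower, and 216 higher and 14 lower.

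In hBMSC-CM, LINC01226, JMJD1C-AS1, LINC00886 and GAS6-AS1 rose most of the RNAs with a mean of at least 2 CPM, with log2 fold changes of 2.65 ± 0.17, 1.83 ± 0.11, 1.70 ± 0.23 and 1.67 ± 0.18 (SE). LINC00886, on chromosome 3, was at 1.06, 1.10 and 1.11 CPM with vehicle in RPMI, 4.66, 3.23 and 3.37 CPM with quizartinib in RPMI, 1.06, 0.751 and 0.522 CPM with vehicle in hBMSC-CM and 2.42, 2.77 and 2.76 CPM with quizartinib in hBMSC-CM. Quizartinib libraries lay above vehicle libraries in both media, and with vehicle the lowest RPMI library nearly met the highest one in hBMSC-CM. LINC00886 reached 2 CPM only through its quizartinib libraries. The largest falls at that level were smaller, with −0.85 ± 0.10 for RNASEH1-AS1, −0.82 ± 0.06 for TMPO-AS1, −0.72 ± 0.18 for ELFN1-AS1 and −0.64 ± 0.17 for VPS9D1-AS1. TMPO-AS1 starts 843 bases from TMPO, which encodes a nuclear lamina-associated protein. It was at 35.4, 36.3 and 34.6 CPM with vehicle in RPMI, 17.1, 17.8 and 17.4 CPM with quizartinib in RPMI, 36.1, 36.1 and 37.1 CPM with vehicle in hBMSC-CM and 20.01, 21.7 and 20.3 CPM with quizartinib in hBMSC-CM. Both quizartinib groups were below both vehicle groups (adjusted p = 3.62e-13 in RPMI and 4.80e-11 in hBMSC-CM, edgeR), and TMPO fell by 1.03 in RPMI on the log2 scale.

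The comparisons in the 2 media share no libraries, so their calls can be set side by side. Of the 193 RNAs higher with quizartinib in RPMI, 164 (85.0%) were also higher in hBMSC-CM and 0 were lower, and 29 did not pass. Of the 50 that were lower in RPMI, 12 (24.0%) were lower in hBMSC-CM, 34 did not pass and 4 were higher. Over all genes tested, 72.8% of those higher in RPMI were higher in hBMSC-CM, and 76.8% of those lower in RPMI were lower. The 12 that fell in both media were DDX11-AS1, ELFN1-AS1, ENTPD1-AS1, FGD5-AS1, KDM4A-AS1, KTN1-AS1, LINC01128, PRKCQ-AS1, RNASEH1-AS1, SVIL-AS1, TMPO-AS1 and VPS9D1-AS1, named after their values were seen. The 4 that fell in RPMI and rose in hBMSC-CM were MRPL20-AS1, NCBP2-AS2, TMCC1-AS1 and TMEM147-AS1, of which the annotation lists NCBP2-AS2 as protein-coding.

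**Figure D4:**
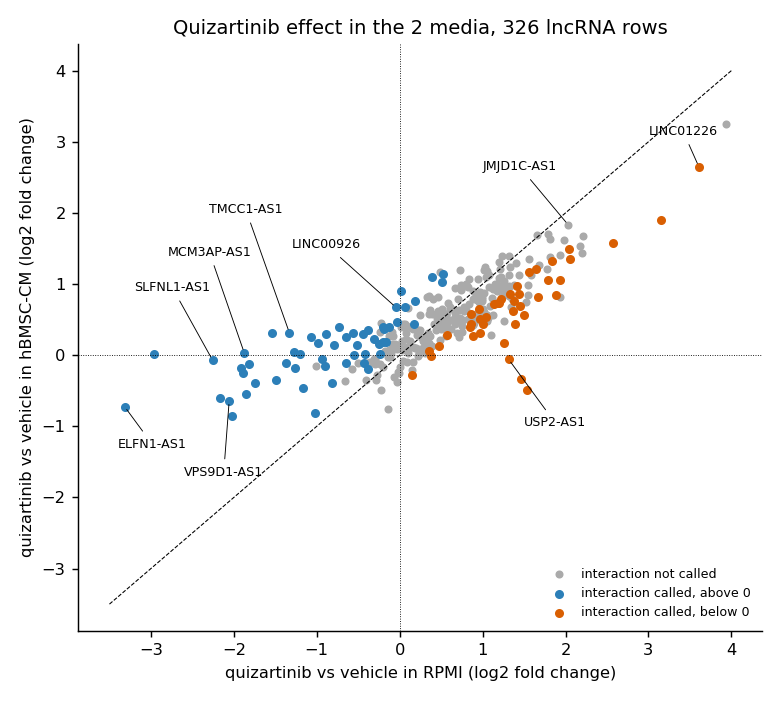
Log2 fold change with quizartinib in hBMSC-CM (y axis) against that in RPMI (x axis) for the 326 RNAs. Colored points passed the test of the difference between the media, 56 above 0 (blue) and 42 below 0 (orange), and the dashed line marks equal change. RNAs that fell in RPMI lay mostly near 0 in hBMSC-CM, and those that rose lay mostly above 0 in both.

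The difference between the media was tested as an interaction, the effect of quizartinib in hBMSC-CM minus that in RPMI, in the same model. It passed for 98 of the 326 RNAs (30.1%), 56 above 0 (17.2%) and 42 below 0 (12.9%), against 45.2% of all genes tested, 26.1% above 0 and 19.2% below. Without a filter on low counts 62 were above 0 and 23 below. At a mean of 2 CPM or more, the 4 largest positive values belonged to RNAs that fell in RPMI and not, or less, in hBMSC-CM. MCM3AP-AS1, whose exons overlap those of MCM3AP, the gene of an mRNA export scaffold, and which starts 372 bases from LSS, a gene of cholesterol synthesis, was at 8.75, 9.62 and 10.9 CPM with vehicle in RPMI, 2.48, 2.54 and 2.98 CPM with quizartinib in RPMI, 11.3, 11.4 and 10.8 CPM with vehicle in hBMSC-CM and 11.3, 11.5 and 11.6 CPM with quizartinib in hBMSC-CM. Quizartinib in RPMI lay far below the other 3 groups. The log2 fold change was −1.87 ± 0.11 in RPMI and 0.03 ± 0.09 in hBMSC-CM (interaction 1.91 ± 0.14, adjusted p = 7.34e-10, edgeR). LINC02449, on chromosome 12, was at 6.46, 6.38 and 6.13 CPM with vehicle in RPMI, 1.55, 2.12 and 1.32 CPM with quizartinib in RPMI, 6.89, 6.51 and 6.17 CPM with vehicle in hBMSC-CM and 5.29, 5.79 and 5.53 CPM with quizartinib in hBMSC-CM. It too was lowest with quizartinib in RPMI, without overlap (interaction 1.65 ± 0.18, adjusted p = 2.33e-07, edgeR). For ELFN1-AS1 the interaction was 2.59 ± 0.36 and for SLFNL1-AS1 2.19 ± 0.32 (adjusted p = 5.42e-06 and 9.37e-06, edgeR). FOXP4-AS1, whose mean of 1.90 CPM kept it out of the rule for named RNAs, had −2.97 in RPMI and 0.02 in hBMSC-CM.

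At a mean of 2 CPM or more, the 4 largest negative values belonged to RNAs whose rise in RPMI was smaller or missing in hBMSC-CM. USP2-AS1, opposite the gene of the deubiquitinase USP2, was at 5.64, 5.59 and 5.63 CPM with vehicle in RPMI, 12.8, 14.3 and 14.9 CPM with quizartinib in RPMI, 5.71, 5.06 and 6.36 CPM with vehicle in hBMSC-CM and 4.59, 6.58 and 5.44 CPM with quizartinib in hBMSC-CM. It was high with quizartinib in RPMI, and the other 3 groups overlapped. Its log2 fold change was 1.31 ± 0.11 in RPMI and −0.06 ± 0.13 in hBMSC-CM (interaction −1.37 ± 0.17, adjusted p = 1.03e-06, edgeR). DLGAP1-AS1, LINC01226 and LINC01881 rose in both media, and their interactions were −0.99 ± 0.34, −0.96 ± 0.30 and −0.95 ± 0.23 (adjusted p = 0.0203, 0.0135 and 0.00181, edgeR). The call for DLGAP1-AS1 was lost without replicate 1 of vehicle in RPMI (−0.69) or replicate 3 of vehicle in hBMSC-CM (−0.90), and that for LINC01226 without replicate 2 of vehicle in RPMI (−0.78). LINC01881, at 1.27, 1.41 and 1.29 CPM with vehicle in RPMI, 3.41, 3.65 and 3.32 CPM with quizartinib in RPMI, 1.45, 1.65 and 1.66 CPM with vehicle in hBMSC-CM and 2.00, 2.46 and 1.97 CPM with quizartinib in hBMSC-CM, is annotated as a pseudogene whose exons lie within those of another gene on the same strand. Its quizartinib libraries were above its vehicle libraries in both media, and more so in RPMI.

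To see how stromal factors changed these RNAs in drug-treated cells, hBMSC-CM was compared with RPMI, both with quizartinib. More RNAs were lower in hBMSC-CM than higher. By the quasi-likelihood test of edgeR with Benjamini-Hochberg adjustment, 156 of 326 (47.9%) were lower and 68 (20.9%) higher, and the median log2 fold change was −0.25. Over all genes tested, 69.8% passed, 35.5% higher and 34.3% lower. At least 2-fold, 22 RNAs were higher (6.7%; 7.15% of all genes) and 21 lower (6.4%; 2.72% of all genes). Of the 259 RNAs with a mean of at least 1 CPM in every group, 10 (3.86%) were at least 2-fold higher and 12 (4.63%) lower. This comparison shares its RPMI libraries with quizartinib against vehicle in RPMI, and is not independent of it.

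At a mean of 2 CPM or more, ELFN1-AS1, MCM3AP-AS1, SLFNL1-AS1 and TMCC1-AS1 had the largest values above 0, with log2 fold changes of 2.83 ± 0.30, 2.11 ± 0.11, 1.85 ± 0.26 and 1.71 ± 0.10. TMCC1-AS1, now named TMCC1-DT, starts 100 bases from TMCC1, a gene of an endoplasmic reticulum membrane protein, and was at 11.7, 12.6 and 12.3 CPM with vehicle in RPMI, 5.12, 5.14 and 4.10 CPM with quizartinib in RPMI, 13.5, 11.4 and 13.1 CPM with vehicle in hBMSC-CM and 16.6, 15.2 and 15.7 CPM with quizartinib in hBMSC-CM. The lowest levels were those with quizartinib in RPMI and the highest those with quizartinib in hBMSC-CM, and the vehicle groups overlapped. TMCC1 itself moved the other way, with 0.66 ± 0.08 against vehicle in RPMI and −0.52 ± 0.08 between the media with quizartinib. HMGA2-AS1, GAS6-AS1, USP2-AS1 and JMJD1C-AS1 were lower in hBMSC-CM, with log2 fold changes of −1.95 ± 0.16, −1.66 ± 0.12, −1.35 ± 0.11 and −1.34 ± 0.08, with adjusted p-values between 6.48e-12 and 8.29e-10 (edgeR).

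With vehicle, hBMSC-CM changed fewer of the RNAs, and again most that changed were lower. By the quasi-likelihood test of edgeR with Benjamini-Hochberg adjustment, 68 of 326 (20.9%) were lower than in RPMI and 13 (4.0%) higher, against 32.1% of all genes tested passing, 16.6% higher and 15.5% lower, and the median log2 fold change was −0.18. Without replicate 3 of vehicle in hBMSC-CM, 8 were higher. At a mean of 2 CPM or more, the largest falls were those of HMGA2-AS1 (−1.31 ± 0.27), JMJD1C-AS1 (−1.14 ± 0.12), GAS6-AS1 (−1.12 ± 0.19) and LINC01480 (−1.11 ± 0.15). LINC01480, on chromosome 19, was at 3.93, 4.22 and 3.41 CPM with vehicle in RPMI, 4.54, 4.59 and 4.05 CPM with quizartinib in RPMI, 1.72, 1.70 and 1.99 CPM with vehicle in hBMSC-CM and 2.77, 3.20 and 3.23 CPM with quizartinib in hBMSC-CM. Both hBMSC-CM groups lay below both RPMI groups.

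Among the RNAs higher with vehicle in hBMSC-CM were TRG-AS1, LINC00926, LINC00963 and TRHDE-AS1. TRG-AS1, read from the strand opposite the T cell receptor gamma locus, was at 10.6, 12.8 and 12.7 CPM with vehicle in RPMI, 10.3, 9.63 and 10.4 CPM with quizartinib in RPMI, 18.1, 18.3 and 18.98 CPM with vehicle in hBMSC-CM and 18.1, 16.1 and 16.4 CPM with quizartinib in hBMSC-CM. All 6 hBMSC-CM libraries lay above all 6 RPMI libraries (log2 fold change with vehicle 0.63 ± 0.08, adjusted p = 5.32e-06, edgeR). LINC00926, on chromosome 15, was at 43.1, 46.9 and 49.2 CPM with vehicle in RPMI, 45.2, 45.9 and 43.5 CPM with quizartinib in RPMI, 63.6, 61.1 and 72.9 CPM with vehicle in hBMSC-CM and 102, 103 and 110.1 CPM with quizartinib in hBMSC-CM. It was alike with vehicle and quizartinib in RPMI, higher in hBMSC-CM and highest there with quizartinib, where it rose by 0.67 ± 0.06 against vehicle (adjusted p = 3.09e-09, edgeR). LINC00963, on chromosome 9, was at 33.1, 32.6 and 31.3 CPM with vehicle in RPMI, 35.5, 38.2 and 35.9 CPM with quizartinib in RPMI, 43.1, 43.6 and 45.3 CPM with vehicle in hBMSC-CM and 60.7, 57.3 and 60.1 CPM with quizartinib in hBMSC-CM. The 4 groups did not overlap. TRHDE-AS1 had 0.42 ± 0.15 with vehicle (adjusted p = 0.0328, edgeR), a call that was lost with the DESeq2 Wald test (0.41) and without replicate 1 (0.33) or 2 (0.42) of vehicle in RPMI or replicate 1 (0.37) or 3 (0.42) of vehicle in hBMSC-CM. The comparisons with vehicle and with quizartinib share no libraries. Of the 68 RNAs lower with vehicle, 54 (79.4%) were lower with quizartinib, and 3, GABPB1-AS1, LINC00843 and PITRM1-AS1, were higher. LINC00843 was matched by an older symbol to TIMM23B-AGAP6, which the annotation lists as protein-coding. Its exons overlap those of AGAP6 and TIMM23B on the same strand, so their reads may be shared. Of the 13 that were higher with vehicle, 10 were higher with quizartinib and 1, LINC02561, was lower. Over all genes tested, 75.7% of those lower with vehicle were lower with quizartinib, and 82.5% of those higher were higher.

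With quizartinib, the 5 most abundant RNAs changed by no more than 1.03 on the log2 scale in either medium. OIP5-AS1, the human counterpart of the conserved RNA cyrano, known for its pairing with the microRNA miR-7, was at 203, 211 and 199 CPM with vehicle in RPMI, 225, 209 and 210.3 CPM with quizartinib in RPMI, 210.3, 218 and 195 CPM with vehicle in hBMSC-CM and 241, 245 and 243 CPM with quizartinib in hBMSC-CM. Its highest levels were those with quizartinib in hBMSC-CM, and the other groups overlapped. FGD5-AS1 was at 121, 125 and 117 CPM with vehicle in RPMI, 94.7, 90.3 and 92.7 CPM with quizartinib in RPMI, 116, 116 and 126 CPM with vehicle in hBMSC-CM and 112, 100.5 and 101 CPM with quizartinib in hBMSC-CM. It fell with quizartinib by 0.39 in RPMI and by 0.19 in hBMSC-CM on the log2 scale (adjusted p = 2.48e-07 and 0.00171, edgeR). GABPB1-AS1, which starts 464 bases from GABPB1, a gene of an ETS transcription factor complex, was at 54.8, 59.1 and 59.6 CPM with vehicle in RPMI, 89.4, 79.3 and 77.8 CPM with quizartinib in RPMI, 48.9, 44.8 and 48.4 CPM with vehicle in hBMSC-CM and 93.7, 96.1 and 100.2 CPM with quizartinib in hBMSC-CM. Quizartinib raised it in both media, by 0.51 ± 0.06 in RPMI and 1.03 ± 0.06 in hBMSC-CM, and GABPB1 fell by 0.66 in RPMI. PSMB8-AS1, opposite a gene of the immunoproteasome, was at 43.7, 46.7 and 41.5 CPM with vehicle in RPMI, 63.4, 64.4 and 59.2 CPM with quizartinib in RPMI, 45.3, 46.9 and 46.7 CPM with vehicle in hBMSC-CM and 68.6, 66.8 and 63.6 CPM with quizartinib in hBMSC-CM, and rose in both media (0.51 ± 0.05 and 0.52 ± 0.05). LINC00926, described above, lay between the last 2 in mean CPM. Divided by exon length, the order was another: the mean over the 12 libraries was 22.7 CPM per kb for PSMB8-AS1, 18.0 for FGD5-AS1, 17.9 for LINC00926, 9.72 for OIP5-AS1 and 4.14 for GABPB1-AS1.

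Of a list of 30 much studied RNAs, 18 met the selection. LINC01578, annotated as CHASERR and known as a negative regulator of its neighbor CHD2, a chromatin remodeler, was at 25.3, 26.4 and 26.4 CPM with vehicle in RPMI, 43.5, 44.8 and 45.1 CPM with quizartinib in RPMI, 19.8, 17.5 and 19.7 CPM with vehicle in hBMSC-CM and 29.2, 33.9 and 28.2 CPM with quizartinib in hBMSC-CM. Quizartinib raised it in both media (0.77 ± 0.07 in RPMI, adjusted p = 6.06e-10, edgeR), and it was lower in hBMSC-CM with either treatment, with no overlap between the 4 groups. PRKCQ-AS1, which starts 118 bases from the gene of protein kinase C theta, was at 9.06, 8.61 and 8.53 CPM with vehicle in RPMI, 2.99, 2.26 and 2.64 CPM with quizartinib in RPMI, 10.03, 9.31 and 10.5 CPM with vehicle in hBMSC-CM and 7.18, 8.43 and 7.26 CPM with quizartinib in hBMSC-CM. It was lowest with quizartinib in RPMI (−1.74 ± 0.12; interaction 1.35 ± 0.16, adjusted p = 4.22e-07, edgeR). PSMA3-AS1, named after a proteasome subunit, rose with quizartinib by 0.51 ± 0.06 in RPMI and 0.65 ± 0.06 in hBMSC-CM, and TAPT1-AS1 by 1.26 ± 0.20 and 1.05 ± 0.25. TAPT1-AS1 was below 1 CPM in every vehicle library and met the selection only through its quizartinib libraries. Its fold changes are thus not free of the selection. THUMPD3-AS1, at 21.4, 22.6 and 22.1 CPM with vehicle in RPMI, 23.2, 22.8 and 23.4 CPM with quizartinib in RPMI, 15.7, 16.5 and 17.3 CPM with vehicle in hBMSC-CM and 18.8, 17.8 and 16.7 CPM with quizartinib in hBMSC-CM, did not pass with quizartinib in either medium but differed between the media, lower in hBMSC-CM with vehicle (−0.42 ± 0.06) and with quizartinib (−0.38 ± 0.06). EPB41L4A-AS1 and MAPKAPK5-AS1 had log2 fold changes of −0.04 and −0.03 with quizartinib in RPMI, with adjusted p-values of 0.607 and 0.730 (edgeR). PCED1B-AS1 had −0.23, VIM-AS1, named after the gene of vimentin, 0.34, LINC00294 0.38 and LINC00909 0.22, with adjusted p-values between 0.00276 and 0.0176 (edgeR).

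In none of the 4 comparisons did 38 of the RNAs pass the edgeR test, OTUD6B-AS1, LINC00467 and LINC00641 among them. The same count over all genes tested was not made, so 38 is not read as a trait of these RNAs. OTUD6B-AS1 was at 40.2, 46.1 and 42.4 CPM with vehicle in RPMI, 45, 45.02 and 41.2 CPM with quizartinib in RPMI, 42.6, 45.9 and 43.3 CPM with vehicle in hBMSC-CM and 45.9, 47.5 and 45.5 CPM with quizartinib in hBMSC-CM. Libraries with quizartinib overlapped those with vehicle in both media. Its log2 fold change with quizartinib was 0.03 ± 0.06 in RPMI and 0.08 ± 0.06 in hBMSC-CM (SE). LINC00641 had 0.13 ± 0.10 and 0.20 ± 0.10, and the lower LINC00467 0.26 ± 0.12 and 0.26 ± 0.13.

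Antisense RNAs were set beside the coding genes they are named after, 187 pairs in which both were tested (in 37 pairs the partner was not). The partners were more evenly divided than the RNAs. With quizartinib in RPMI, 80 partners were higher (42.8%; 40.1% of all genes tested) and 63 lower (33.7%; 39.2%). Their median log2 fold change was 0.06, against 0.53 for the 187 antisense RNAs. In hBMSC-CM 67 partners were higher (35.8%; 33.4%) and 60 lower (32.1%; 33.7%), and the median of the antisense RNAs was 0.44. Between the media with quizartinib, 66 partners were higher (35.3%; 35.5%) and 70 lower (37.4%; 34.3%). With vehicle 36 were higher (19.3%; 16.6%) and 40 lower (21.4%; 15.5%). The medians of the antisense RNAs between the media were −0.27 with quizartinib and −0.19 with vehicle. With quizartinib in RPMI, 144 of the antisense RNAs and 143 of the partners passed. Both members of a pair passed in 116 pairs. In 57 of these both rose and in 17 both fell, while in 29 the antisense RNA rose and its partner fell, and in 13 the reverse. Whether 116 is more than these totals alone would give was not tested.

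Across the pairs, the fold changes of antisense RNA and partner with quizartinib in RPMI had a Pearson r of 0.24 and a Spearman rho of 0.25 (187 pairs from the same libraries, which are not independent, so no p is given). In the 76 pairs that start within 1000 bases of each other r was 0.38 and rho 0.34, and in the other 111 r was 0.19 and rho 0.19. For hBMSC-CM against RPMI with quizartinib, r was 0.41 in the near pairs and 0.14 in the others. How reads in overlapping exons were counted is not stated, and their part in these correlations was not tested.

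**Figure D5:**
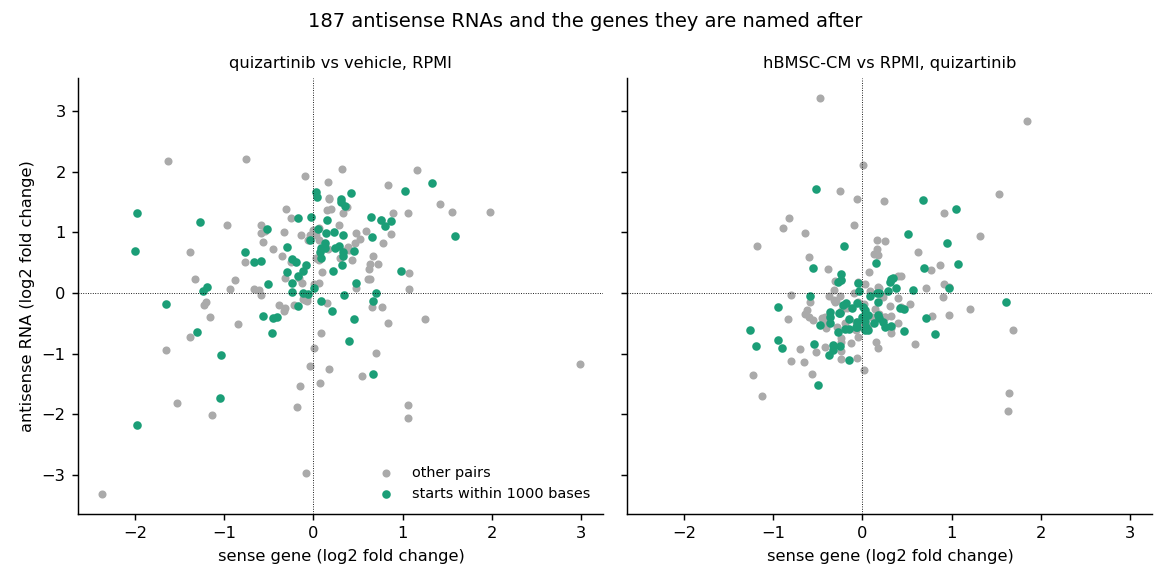
Log2 fold change of 187 antisense RNAs (y axis) against that of the coding genes they are named after (x axis), with quizartinib against vehicle in RPMI (left) and hBMSC-CM against RPMI with quizartinib (right). Green points are the 76 pairs that start within 1000 bases of each other. In the left panel 57 pairs passed with both higher, and 29 with the antisense RNA higher and its partner lower.

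Long noncoding RNAs with other kinds of names, from a list of 46 of which 30 were tested, gave the following counts. With quizartinib in RPMI 14 were higher (46.7%; 40.1% of all genes tested) and 11 lower (36.7%; 39.2%). Their median log2 fold change there was 0.01, against 0.02 over all genes. In hBMSC-CM 14 were higher (46.7%; 33.4%) and 6 lower (20%; 33.7%), and the median was 0.22. Between the media 12 were higher (40%; 35.5%) and 10 lower (33.3%; 34.3%) with quizartinib. With vehicle 5 were higher (16.7%; 16.6%) and 3 lower (10%; 15.5%). In the interaction 11 were higher (36.7%; 26.1%) and 4 lower (13.3%; 19.2%). Differences from the shares of all genes were not tested. The nuclear RNAs MALAT1 and NEAT1, a scaffold of paraspeckles, rose in RPMI by 0.93 ± 0.17 and 1.17 ± 0.08 on the log2 scale, and FTX, an RNA of the X-inactivation center, by 1.30 ± 0.08. MIR17HG, the host of the miR-17-92 cluster and a target of MYC, was at means of 19.2 CPM with vehicle and 2.38 CPM with quizartinib in RPMI, and 21.2 and 11.5 CPM in hBMSC-CM. The snoRNA hosts SNHG15 and SNHG16 fell by 2.50 and 1.82 in RPMI and by 0.50 and 0.54 in hBMSC-CM.

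The promoter windows, 300 bases each, were searched on both strands for the letters of 5 motifs. CACGTG, the E-box bound by MYC and MAX, was in 11.2% of the 215 windows of these RNAs and in 7.28% of all 22114 windows. For CCGGAAGT, an ETS motif, the shares were 7.91% and 4.51%, and for TGACGTCA, the cyclic AMP response element, 2.79% and 2.01%. TTCNNNGAA, the STAT motif, was in 7.91% and 8.18%, and TGANTCA, the AP-1 motif, in 3.26% and 8.05%. Of the 24 RNAs with CACGTG, 13 were higher and 4 lower with quizartinib in RPMI, and of the 191 without it 113 were higher and 28 lower. Of the 17 with CCGGAAGT, 11 were higher (64.7%) and 4 lower (23.5%), against 58.1% and 14.1% of the 198 without it. Of the 17 with TTCNNNGAA, 8 were higher and 3 lower (59.6% and 14.6% of those without it). Of the 6 with TGACGTCA, 3 were higher and 1 lower (58.9% and 14.8% without it). Of the 7 with TGANTCA, 6 were higher and 1 lower (57.7% and 14.9% without it). None of these differences was tested. None of the 6 windows printed holds any of these motifs. Such matches are descriptions of letters and not of binding.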

How the data were processed

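RNA-seq counts of 12 libraries of MOLM-13 cells were used. According to the methods, the authors used BBDuk on poly-A-selected, paired-end reads to take off adapters and drop short reads, mapped them to Ensembl hg38 with STAR 2.6.0a, added the counts of identifiers with the same name, and deposited raw counts without normalization. The use of strand in this step is not given in the sources used here. Samples were grouped by their labels. The 12998 genes whose mean count and mean CPM both reached 1 were scaled by TMM. The tests were glmQLFit and glmQLFTest of edgeR 4.0.16 (R 4.3.3) in 1 model with 4 group means. Two-sided p-values were adjusted by the Benjamini-Hochberg method over all 12998 genes, with a threshold of 0.05. Log2 fold changes are given with their SE, and levels are TMM-scaled CPM. Positions came from GENCODE 44 and promoter windows from RefSeq.

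The RNAs, the lists and the rule for named RNAs were chosen with earlier results of these data known. The rule took, in each comparison, the 4 largest rises and falls among RNAs that passed, had a mean of at least 2 CPM and did not overlap between groups (for the interaction, no overlap rule), the 5 most abundant RNAs, and those in a list of 30 studied RNAs. The test was checked on simulated counts for quizartinib against vehicle in RPMI (12998 genes), where it called 98 of 100 genes changed 2-fold and 89 of 100 changed 1.5-fold in the right direction, and 12 unchanged genes. The changed genes were drawn at random from all genes tested, as many higher as lower, and all others were left unchanged. In the data 79.3% of genes passed, and these RNAs are lower in level (median 3.57 against 29.7 CPM). The simulated rates therefore do not carry over to these RNAs. Alternatives were other scalings (DESeq2 size factors, library size, upper quartile), other filters, DESeq2 1.42.0, limma-voom (limma 3.58.1), a replicate block, only the groups compared, and each library left out.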

Additional observations from a re-analysis of the deposited data

Results flagged for a closer look

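The effect of quizartinib differed between the media for 98 of the 326 RNAs by the interaction test of edgeR (45.2% of all genes tested). Among the RNAs named, the effect in hBMSC-CM minus that in RPMI was 2.59 on the log2 scale for ELFN1-AS1, 2.19 for SLFNL1-AS1, 1.91 for MCM3AP-AS1 and 1.65 for LINC02449. These 4 were the largest positive values among RNAs that passed and had a mean of at least 2 CPM. All 4 RNAs fell in RPMI and fell less, or did not pass the test, in hBMSC-CM. The difference was −1.37 for USP2-AS1, which rose in RPMI and had −0.06 in hBMSC-CM. For DLGAP1-AS1 it was −0.99, for LINC01226 −0.96 and for LINC01881 −0.95, and these 3 rose in both media and less in hBMSC-CM.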

How the results depend on the processing

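Total counts of RNAs called stayed within 1.5 times their values under every alternative. By direction, 3 counts did not: RNAs lower with quizartinib in hBMSC-CM went from 19 to 11 with scaling by library size, those higher in hBMSC-CM with vehicle from 13 to 8 without replicate 3 of vehicle in hBMSC-CM, and those below 0 in the interaction from 42 to 23 without a filter on low counts. Leaving out 1 library at a time gave 235 to 244 RNAs for quizartinib against vehicle in RPMI (243 with all libraries), 187 to 208 in hBMSC-CM (209), 203 to 226 for hBMSC-CM against RPMI with quizartinib (224), 62 to 84 with vehicle (81) and 76 to 92 for the interaction (98). The other alternatives gave 235 to 249, 190 to 234, 206 to 231, 71 to 92 and 74 to 98. Without a filter on low counts the interaction was above 0 in 62 RNAs, or 72.9% of those called in place of 57.1%, and of all called genes 70.6% were higher in place of 57.6%. Upper-quartile factors moved the median of all genes by 0.10 on the log2 scale in RPMI, and scaling by library size moved it by 0.10 in hBMSC-CM. Of 832 alternative values for named RNAs, 824 kept their direction and call, 8 lost the call and 0 changed sign. The 8 belonged to TRHDE-AS1 with vehicle and to the interactions of DLGAP1-AS1 and LINC01226. The 40 results behind these values were picked as the largest changes that passed, so most would hold in refits of the same libraries. The count does not speak for the other RNAs called. Same-numbered libraries of different groups did not deviate together (correlations of −0.30 to 0.14, against −0.22 to 0.31 for different numbers), so no pairing by number was visible. With 3 libraries per group, such correlations cannot exclude it. With the replicate number as a block, 241, 204, 218, 78 and 89 RNAs were called in the order above. Low counts limit precision for the RNAs near 1 CPM.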

Other observations

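A few RNAs, picked after their values were seen, had effects of opposite sign in the media. LINC02561 had a log2 fold change with quizartinib of 1.54 in RPMI and −0.49 in hBMSC-CM, and VLDLR-AS1, named after a lipoprotein receptor gene, 1.46 and −0.33. In both cases the value in hBMSC-CM did not pass the edgeR test. NCBP2-AS2, which the annotation lists as protein-coding, had −0.38 in RPMI and 0.35 in hBMSC-CM, TMEM147-AS1 −0.64 and 0.25, and MRPL20-AS1 −0.20 and 0.19. Each of the last 3 passed in both media.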
